A study of Mus musculus with 6 samples.

Results

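The major urinary protein (Mup) genes were examined in RNA-Seq of hepatocytes taken 4 days after Sox4 was delivered to the mouse liver. The members were chosen by gene symbol: Mup1, Mup2, Mup3, Mup7, Mup10, Mup11, Mup17, Mup20 and Mup21, 9 of the 53599 genes in the count table and 9 of its 49 Mup-named genes. There were 3 empty vector (EV) libraries, from mice given AAV8-TBG-Cre, and 3 Sox4 libraries, from mice given AAV8-TBG-HA-Sox4-P2A-Cre at 1e12 genome copies per mouse. The labels give the genotypes as WT and Sox4. By the study's methods, all mice were homozygous for Rosa-LSL-Cas9-EGFP on a C57BL/6J background, so that Cre switched on Cas9 and EGFP in both groups, and mice given Sox4 vectors were injected at an age of 4 to 8 weeks. The study's reporting summary lists male mice alone. TBG is a promoter active in hepatocytes, so that Sox4 was made in those cells, and the hepatocytes were released with liberase and enriched on Percoll, a density medium. The comparison asks how expression in hepatocytes differs once Sox4 is present. The study describes the replicates of this experiment as animals, which the labels do not say, and p-values measure the spread between these libraries. The EV dose was not stated for the RNA-Seq in the sources used here.

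MUPs are small secreted proteins of the lipocalin family, which fold into a barrel that holds small lipophilic molecules. Hepatocytes secrete them into blood, they pass into urine, and there they carry and slowly release volatile pheromones. Their genes form a cluster in which many copies are nearly the same, with a few divergent genes at its edge, and pseudogenes lie between them. In mouse liver they are more active in males than in females, and growth hormone pulses acting through the receptor GHR, the kinase JAK2 and the transcription factor STAT5B, together with glucocorticoid and thyroid hormone, are known to maintain them.

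The copies were compared first, because they decide which counts can be told apart. A stretch of 90 coding bases is shown for the members, chosen as the stretch that best tells the members apart, from the GENCODE M21 transcripts (mouse build GRCm38, all on chromosome 4, exonic and coding). Capitals mark bases that differ from the majority of the 9 members. Positions are counted from 1 at the first base of the start codon.
Mup1, Mup10 and Mup11 (91 to 180 in Mup1 and Mup10, 94 to 183 in Mup11): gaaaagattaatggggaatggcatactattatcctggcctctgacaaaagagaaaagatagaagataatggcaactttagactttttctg
Mup2 (91 to 180): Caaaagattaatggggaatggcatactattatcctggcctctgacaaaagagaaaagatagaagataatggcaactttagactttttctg
Mup7 (91 to 180): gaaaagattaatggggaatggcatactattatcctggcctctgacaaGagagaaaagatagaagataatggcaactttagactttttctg
Mup17 (91 to 180): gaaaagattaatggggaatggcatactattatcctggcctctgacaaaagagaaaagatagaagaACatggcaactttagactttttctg
Mup20 (94 to 183): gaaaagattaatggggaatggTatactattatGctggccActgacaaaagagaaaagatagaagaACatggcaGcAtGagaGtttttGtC
Mup3 (103 to 192): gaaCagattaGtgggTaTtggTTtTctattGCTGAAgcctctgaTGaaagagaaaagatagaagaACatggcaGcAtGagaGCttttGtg
Mup21 (94 to 183): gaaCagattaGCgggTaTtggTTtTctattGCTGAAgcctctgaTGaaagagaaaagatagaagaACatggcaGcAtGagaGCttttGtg
In this stretch Mup1, Mup10 and Mup11 were the same in every base, and Mup2, Mup7 and Mup17 differed from the majority in 1, 1 and 2 bases. Mup20 differed in 11, Mup3 in 23 and Mup21 in 24. Over the whole coding sequence, Mup1, Mup2, Mup7, Mup10, Mup11 and Mup17 were 98.3% to 99.4% identical to each other and are called the near-identical members here. Mup20, which encodes darcin, a male pheromone protein, was 90.1% to 91.3% identical to those 6. Mup3 and Mup21, whose genes lie next to each other at the edge of the cluster, were 94.8% identical to each other and 82.1% to 84.7% identical to the 6.

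These differences set how much of each transcript could be assigned to 1 gene. Of all stretches of 100 bases in the spliced transcripts of Mup3, 97.8% occurred in no other gene, and for Mup21 the share was 95.5%. Mup20 had 61.2% of its own and shared the rest mainly with the pseudogene Mup-ps19. Among the near-identical members the share was 44.3% for Mup1, 40.6% for Mup17, 29.4% for Mup11, 26.6% for Mup10, 24.5% for Mup2 and 23.9% for Mup7. With stretches of 150 bases the shares were 100% for Mup3 and Mup21, 68.9% for Mup20 and 27.7% to 59.6% for the near-identical members. Mup22, another gene of the cluster, had 0% of its own at either length and still held counts. Neither read length nor the treatment of multiply mapped reads is given in the sources used here. Counts of Mup3 and Mup21 therefore belong to these genes with little ambiguity while the division of counts among the near-identical genes is uncertain.

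**Figure D1:**
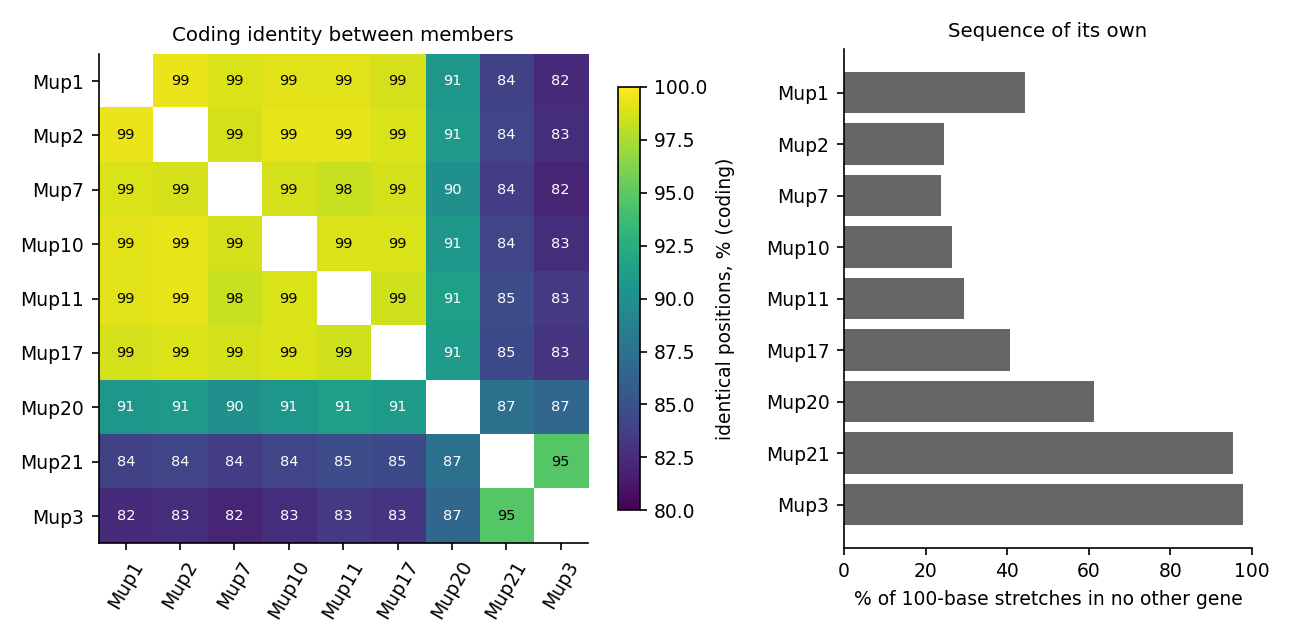
Left, percent of identical positions between the coding sequences of each pair of members (colour and number). Right, percent of the 100-base stretches in a gene's transcripts that occur in no other gene. Mup1, Mup2, Mup7, Mup10, Mup11 and Mup17 form a block at 98% to 99% identity with 23.9% to 44.3% of their own sequence, whereas Mup3 and Mup21 have 97.8% and 95.5%.

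RefSeq promoter sequences (GRCm38.p6) were held for 7 of the 9 members, all but Mup1 and Mup20. The 60 bases before the annotated start are shown for a pair of near-identical members and for Mup3, to let the region that the copies share be compared, with the letters TATATAA in capitals.
Mup2, chr4:60139857-60139916, minus strand: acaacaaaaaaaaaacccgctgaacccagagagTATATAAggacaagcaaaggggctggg
Mup10, chr4:60582156-60582215, minus strand: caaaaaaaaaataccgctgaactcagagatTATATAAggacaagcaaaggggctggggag
Mup3, chr4:62087318-62087377, minus strand: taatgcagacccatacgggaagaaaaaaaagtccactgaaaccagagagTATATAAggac
The motif TATATAA, searched on both strands with overlaps allowed over 300 bases (250 before and 50 after the start), occurred in 6 of the 7 member windows, all but that of Mup7, and in 3.24% of the 32851 promoters of this length. The STAT5 motif TTCNNNGAA (8.3% of promoters) and the SOX core AACAAAG (5.85%) were in none of the 7, which says only that these letters are not in these windows.

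Total counts per library were 15090629 to 16249382 in EV and 16679195 to 16964860 in Sox4. Levels below are in CPM, counts scaled to a common library size with TMM, a scaling that assumes most genes do not change. A count of 3, taken as the floor, was worth between 0.218 and 0.231 CPM in the EV libraries and between 0.150 and 0.153 CPM in the Sox4 libraries. Floors cover counting error only, since PCR copies of a molecule are not independent. Sox4 itself, the check of the labels, had 2, 0 and 3 counts in EV replicates 1 to 3 and 21697, 15097 and 11816 in Sox4 replicates 1 to 3. The labelled cell type was checked with 12 hepatocyte markers, whose sum lay between 129060 and 149230 CPM in the EV libraries and between 85013 and 96341 CPM in the Sox4 libraries. Of those 12, 9 fell and 3 did not pass the test, beside 26.0% of all genes tested that were lower. Over all genes tested, the median log2 fold change was 0.04 under TMM scaling but 0.51 when libraries were scaled by their totals, and the share of calls that were higher was 52.7% and 79.9% respectively. In bulk RNA, fewer cells of a type and less RNA per cell cannot be told apart.

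All Mup genes together were lower in Sox4 than in EV. The summed counts of the 49 Mup-named genes were 192464, 182576 and 261294 in EV replicates 1 to 3 and 72946, 87020 and 26339 in Sox4 replicates 1 to 3. They made up 1.28%, 1.16% and 1.61% of all counts in EV and 0.430%, 0.522% and 0.157% in Sox4, so the groups did not overlap (exact permutation test, two-sided p = 0.1, the smallest that 3 against 3 libraries allow). The sum fell from 15896 ± 2719 CPM to 3144 ± 1616 CPM (SD, n = 3), and its log2 fold change was -2.34 ± 0.56 (SE; adjusted p = 0.00153, edgeR quasi-likelihood test). Sox4 replicate 3 was the lowest library, at 8.39% of the EV mean, against 25.5% for Sox4 replicates 1 and 2 together. Without that library the log2 fold change was -1.97 (adjusted p = 5.66e-05).

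Of the 9 members, 8 were tested, and their log2 fold changes were all below 0. Of these, 5 passed the threshold of 0.05 for the adjusted p (Mup1, Mup2, Mup3, Mup17 and Mup21), beside 26.0% of all 12691 genes tested that were lower and 55.1% that changed in either direction. Mup7, Mup11 and Mup20 did not pass it, and Mup10 had too few counts to be tested. In 7 of the 8 tested members every Sox4 library lay below every EV library, which was so for 29.9% of all genes tested. The median log2 fold change of the tested members was -4.37, beside 0.04 over all genes tested. Mup1 and Mup2 had at most 5 counts in any Sox4 library, under the filter's minimum count of 10. They were therefore tested through EV alone and could only come out lower. Mup17 reached that minimum in Sox4 replicate 2 alone.

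**Figure D2:**
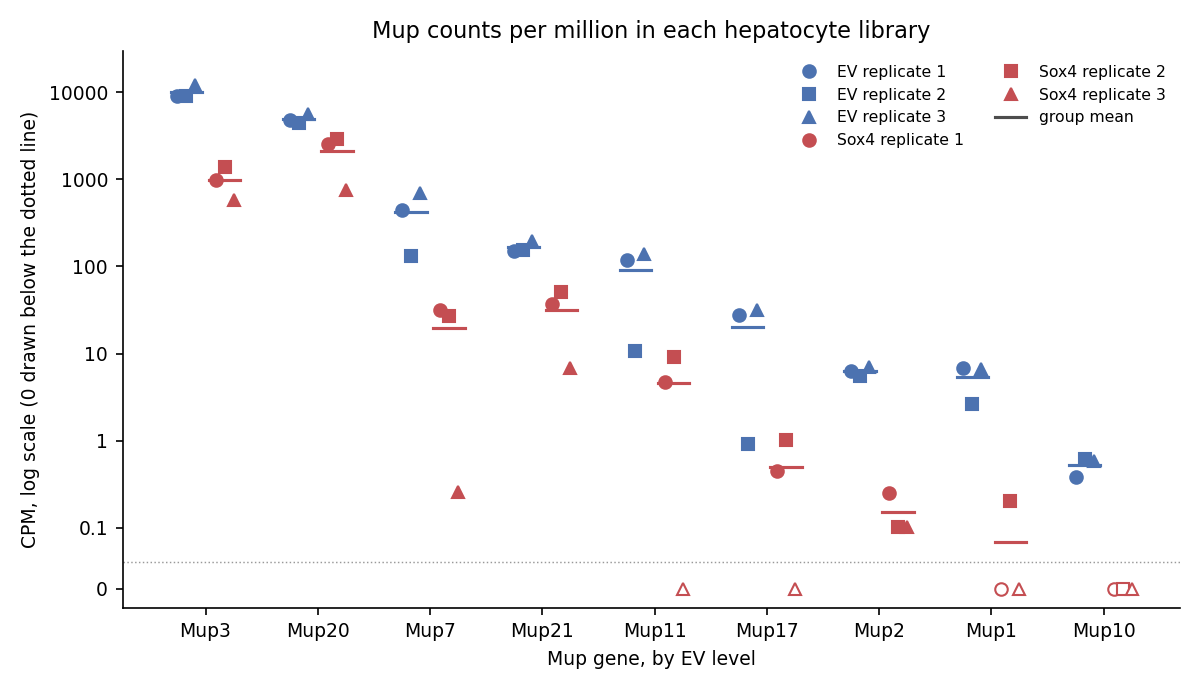
CPM of each member in each library (log axis; open symbols below the dotted line are counts of 0; horizontal lines are group means, n = 3). Sox4 libraries lie below EV libraries for every member shown but Mup17, where EV replicate 2 lies under Sox4 replicate 2, and Sox4 replicate 3 is the lowest or joint lowest library throughout.

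Levels were compared between members as CPM per kilobase of transcript. In EV, Mup3 was first at 10193 ± 1717 and Mup20 second at 5374 ± 701 (SD, n = 3), each above the next member in every library. Mup7 at 459 ± 307 and Mup21 at 245 ± 37 followed and overlapped. Mup11 (97.0 ± 74.9), Mup17 (21.7 ± 18.0), Mup2 (6.80 ± 0.81) and Mup1 (5.80 ± 2.54) each overlapped the next in this order. Mup10 was last at 0.566 ± 0.131, below Mup1 in every library. In Sox4, Mup20 was first at 2254 ± 1268 and overlapped Mup3 at 1008 ± 418. Mup21 followed at 46.7 ± 33.3 and then Mup7 at 21.1 ± 18.1, and the order of the other 5 was as in EV. The order of the near-identical members depends on how shared reads were divided.

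Mup3, the most abundant member in EV and one with nearly all of its sequence to itself, fell about 10-fold. Its level was 9038, 9070 and 11981 CPM in EV replicates 1 to 3 and 996, 1401 and 577 CPM in Sox4 replicates 1 to 3. The Sox4 libraries sat far under the EV libraries, and the spread within either group was small beside the gap. The fitted fold was 10.1 and the log2 fold change -3.34 ± 0.40 (SE; adjusted p = 3.30e-05).

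Mup20, the darcin gene, had 4837, 4424 and 5699 CPM in EV and 2581, 2944 and 750 CPM in Sox4. All Sox4 libraries were lower than all EV libraries, but Sox4 replicate 3 was far from its group, at 15.0% of the EV mean against 55.4% for the other two together. The log2 fold change was -1.25 ± 0.64 (SE) and did not pass the threshold (adjusted p = 0.0541, edgeR). With library size alone it was -0.79 (adjusted p = 0.175), and without a filter the adjusted p was 0.245. It passed without Sox4 replicate 3 (-0.85, adjusted p = 0.00269), without Sox4 replicate 2 (-1.58, adjusted p = 0.0347) and with DESeq2 (adjusted p = 0.0186).

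Mup21, the neighbour of Mup3 and closest to it in sequence, was less abundant. It had 149, 153 and 195 CPM in EV and 36.9, 51.0 and 6.89 CPM in Sox4. The groups did not overlap, and Sox4 replicate 3 was again lowest. The log2 fold change was -2.39 ± 0.90 (SE; adjusted p = 0.0348, edgeR). This call was lost in 7 of 14 alternatives, among them the fit on library size alone (adjusted p = 0.0557) and those without EV replicates 1, 2 or 3 or Sox4 replicate 1 (highest adjusted p = 0.127).

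Mup7 was the most abundant of the near-identical members. It had 5791, 1724 and 9633 counts in EV and 625, 528 and 5 counts in Sox4, or 426 ± 285 and 19.5 ± 16.8 CPM (SD, n = 3). EV replicate 2 was the lowest EV library and still lay above all Sox4 libraries. The log2 fold change was -4.45 ± 2.22 (SE; adjusted p = 0.0543, edgeR), and without Sox4 replicate 3 it was -3.86 (adjusted p = 0.0239). DESeq2 gave an adjusted p of 0.00577.

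Mup11, another near-identical copy, had 1559, 139 and 1927 counts in EV and 93, 180 and 0 in Sox4. EV replicate 2, at 10.6 CPM, was close to Sox4 replicate 2, at 9.19 CPM, whereas the other EV libraries had 120 and 140 CPM. The log2 fold change was -4.29 ± 2.29 (SE; adjusted p = 0.0576, edgeR). Without EV replicate 2 it was -4.83 (adjusted p = 0.0335).

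Mup17 repeated this arrangement at a lower level. It had 362, 12 and 434 counts in EV and 9, 20 and 0 in Sox4, and the groups overlapped, as EV replicate 2 had 0.911 CPM and Sox4 replicate 2 had 1.02 CPM. The log2 fold change was -5.34 ± 1.88 (SE; adjusted p = 0.0362, edgeR). The call was lost in 8 of 14 alternatives, among them limma-voom (adjusted p = 0.332) and the fits without EV replicate 1 or 3 or any of the Sox4 libraries.

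Mup1 and Mup2 were much scarcer and their calls held in every alternative that could test them. Mup2 had 82, 73 and 97 counts in EV and 5, 2 and 2 in Sox4, and EV replicate 2 did not stand apart from the other EV libraries. Its log2 fold change was -5.31 ± 0.26 (SE; adjusted p = 5.60e-06, edgeR). Mup1 had 88, 35 and 92 counts in EV and 0, 4 and 0 in Sox4, and its change was -6.16 ± 0.64 on the log2 scale (SE; adjusted p = 1.68e-04). At so few counts in Sox4 the size of either change is uncertain, though DESeq2 gave similar values, -5.38 for Mup2 and -6.32 for Mup1. For Mup1 the edgeR change was -9.42 without Sox4 replicate 2. That leaves Sox4 counts of 0 alone, where the size depends on the prior count used in the fit. The prior count used for the SE narrows it at such counts. DESeq2 gave SEs of 0.57 for Mup2 and 0.86 for Mup1.

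Mup10 had 5, 8 and 8 counts in EV and none in Sox4, and was at least 3.45-fold lower, taking 3 counts per library as the floor.

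**Figure D3:**
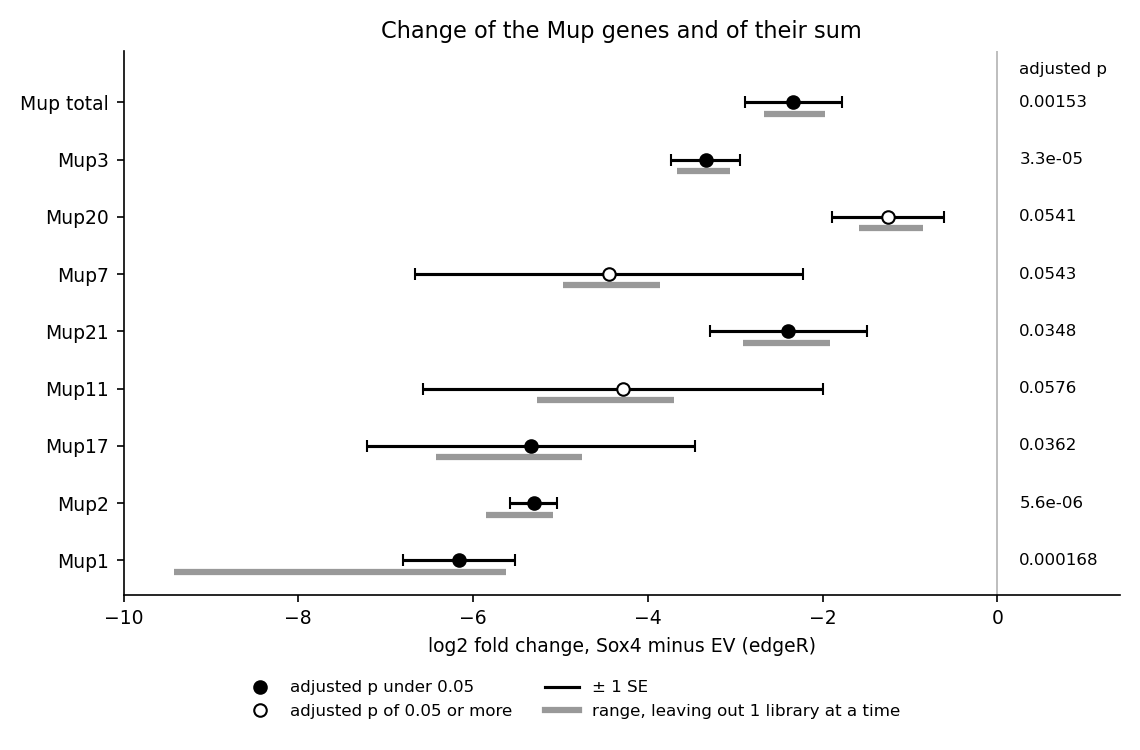
Log2 fold change (Sox4 minus EV, edgeR) of the sum of all Mup genes and of the 8 tested members, with 1 SE (black bars), the adjusted p, and the range when each library was left out in turn (grey bars). All values are below 0, from -1.25 for Mup20 to -6.16 for Mup1, and the widest SEs are those of Mup7, Mup11 and Mup17.

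Because reads may be divided arbitrarily among copies, the 16 coding genes of the near-identical group were also summed, a step added after the values were seen. The sum was 10238, 2742 and 14892 counts in EV and 832, 938 and 15 counts in Sox4. EV replicate 2 was low in the sum as well, as it was for Mup7, Mup11 and Mup17, whereas its counts of Mup3, Mup20 and Mup21 were close to those of EV replicate 1. On the log2 scale the sum changed by -4.52 ± 2.03 (SE, adjusted p = 0.0460, edgeR), and this call was lost in 9 of 14 alternatives, with adjusted p between 0.00242 and 0.234. The 6 near-identical members alone gave -4.46 ± 2.24 (SE) and did not pass (adjusted p = 0.0558).

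Of the other 40 Mup-named genes, 9 were tested. The changes of all 9 were below 0. Of these, 7 passed the test, beside 26.0% of all genes tested that were lower. Mup12, Mup16, Mup-ps13, Mup-ps16 and Mup-ps20 were under the filter's minimum count of 10 in every Sox4 library. They were tested through EV and could only come out lower. Mup22 had 401, 346 and 737 counts in EV and 14, 19 and 4 in Sox4 (log2 fold change -5.87 ± 0.61 SE, adjusted p = 2.53e-05). Mup16 had 242, 67 and 289 counts in EV and 9, 4 and 1 in Sox4 (-5.94 ± 0.82 SE, adjusted p = 4.83e-04). Mup12 (-5.38, adjusted p = 9.30e-05) and Mup14 (-3.90, adjusted p = 0.0192) were lower too, all by the same edgeR test. Mup15 had 826, 21 and 649 counts in EV and 18, 57 and 0 in Sox4, overlapped, and did not pass (adjusted p = 0.0541). Its lowest EV library was replicate 2, as for Mup11 and Mup17.

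Some counts were also placed on Mup pseudogenes. Mup-ps13 had 81, 60 and 99 counts in EV and 3, 0 and 0 in Sox4. Mup-ps16 had 40, 14 and 26 and Mup-ps20 36, 10 and 42 in EV with none in Sox4, at least 13.2-fold and at least 14.4-fold lower. Mup-ps19, which shares sequence with Mup20, had 22, 5 and 23 counts in EV and 17, 14 and 2 in Sox4 and did not pass (-1.16, adjusted p = 0.198). Of the 31 other Mup-named genes that could not be tested, 12 had no count in any library. Mup19 had 61, 5 and 51 counts in EV and none in Sox4, at least 19.3-fold lower.

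The make-up of the family also differed between the groups. Mup3 made up 60.9%, 65.4% and 63.1% of all Mup counts in EV and 27.2%, 31.5% and 43.3% in Sox4. Mup20 made up 32.6%, 31.9% and 30.0% in EV and 70.6%, 66.2% and 56.2% in Sox4. For both the groups were apart, with a mean difference of -29.2 and 32.8 percentage points (exact permutation test, two-sided p = 0.1 for each, the smallest possible). The near-identical group made up 5.32%, 1.5% and 5.70% in EV and 1.14%, 1.08% and 0.0570% in Sox4. Mup21 made up 1.05% ± 0.05 in EV and 0.891% ± 0.332 in Sox4 (SD, n = 3), and the groups overlapped (exact permutation p = 0.8).

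**Figure D4:**
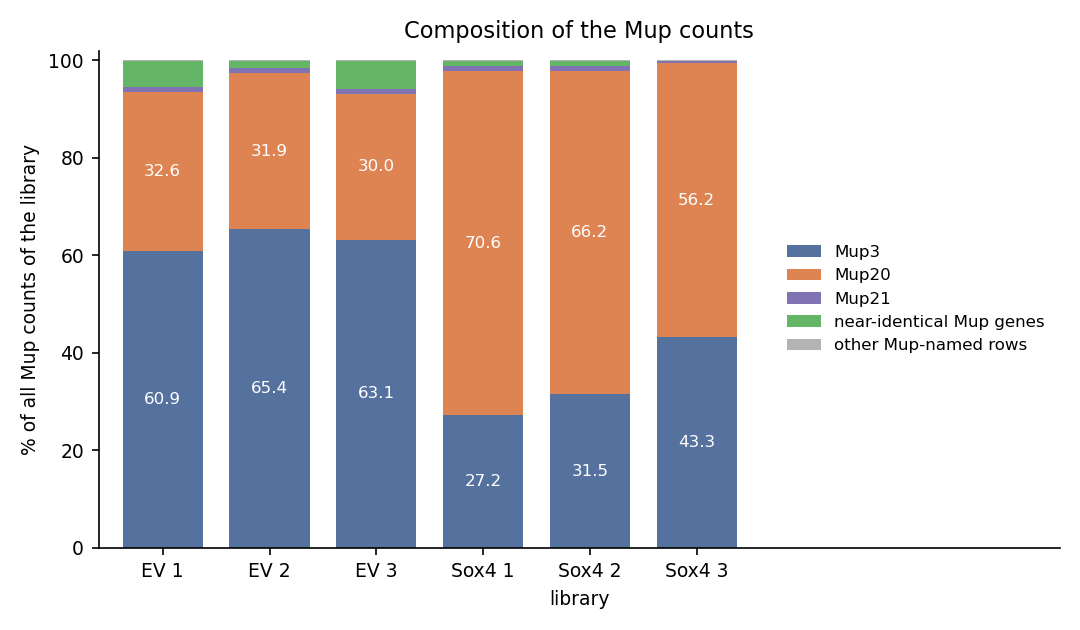
Percent of all Mup counts of a library held by Mup3, Mup20, Mup21, the 16 near-identical genes and the remaining Mup-named genes, 1 bar per library. Mup3 holds 60.9% to 65.4% in EV and 27.2% to 43.3% in Sox4, and Mup20 holds 30.0% to 32.6% in EV and 56.2% to 70.6% in Sox4.

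The ratio of Mup20 to Mup3 within a library does not depend on scaling between libraries. There were 0.535, 0.488 and 0.476 Mup20 counts per Mup3 count in EV and 2.59, 2.10 and 1.30 in Sox4. The EV libraries were nearly equal and all Sox4 libraries were above them. The log2 difference was 1.94 ± 0.30 (SE, n = 3) and stayed between 1.73 and 2.23 when each library was left out in turn, a range added after the values were seen. With Mup3 as the reference in the edgeR fit, Mup20 was higher by 2.00 on the log2 scale (adjusted p = 3.61e-05). Mup21 had 0.0165, 0.0169 and 0.0162 counts per Mup3 count in EV and 0.0371, 0.0364 and 0.0119 in Sox4, and overlapped.

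Each member was also tested against the sum of all Mup genes, to ask which fell more or less than the family. In this fit 0.520% of all genes tested were lower and 90.3% higher, since the reference itself fell. In it 5 members were lower than the sum, and those were all near-identical copies. Their log2 differences were -4.01 ± 0.77 for Mup1, -3.18 ± 1.94 for Mup17, -2.93 ± 0.41 for Mup2, -2.36 ± 1.83 for Mup7 and -2.24 ± 2.53 for Mup11 (SE; highest adjusted p = 0.00353, edgeR). For Mup7, Mup11 and Mup17 the SE from their own libraries was wide beside the difference, whereas the adjusted p rests on a spread moderated across all genes. Mup1 and Mup2 were kept by the filter through EV alone, and Mup17 reached its minimum count in Sox4 replicate 2 alone. The filter thus favoured a fall of these members against the sum. The difference of Mup1 was -8.62 without Sox4 replicate 2. In the shares of the Mup total, Mup11 and Mup17 overlapped between groups (exact permutation p = 0.3 for each). Mup3 and Mup20 together made up 93.2% to 99.4% of the sum in the libraries, so each was tested in large part against itself. Mup3 (-0.89 ± 0.20, adjusted p = 0.182), Mup21 (-0.23 ± 0.36, adjusted p = 0.734) and Mup20 (1.03 ± 0.10, adjusted p = 0.125) did not pass in this fit. Without Sox4 replicate 3, Mup3 (-1.10, adjusted p = 8.11e-04) and Mup20 (1.12, adjusted p = 3.64e-04) passed, whereas Mup11 (adjusted p = 0.303) and Mup17 (adjusted p = 0.248) did not. Against the other Mup genes, with all libraries kept, Mup20 passed (2.03, adjusted p = 9.48e-05, edgeR) and Mup3 did not (-1.69, adjusted p = 0.0539).

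Genes of the hormone and STAT5 pathway that maintains Mup transcription, receptors and factors as well as growth hormone targets, were then set beside the family, from a list of 14, of which 13 were tested. Of these 6 were lower and 3 higher, beside 26.0% and 29.0% of all genes tested. Their median log2 fold change was -0.65, but -0.18 with library size alone and -0.18 without EV replicate 3. Ghr, the growth hormone receptor, had 572, 654 and 629 CPM in EV and 271, 263 and 234 CPM in Sox4 (log2 fold change -1.27 ± 0.09 SE, adjusted p = 3.59e-05). Stat5b, the main STAT5 gene of male liver, had 83.6, 75.4 and 69.5 CPM in EV and 47.8, 40.1 and 43.9 CPM in Sox4 (-0.79 ± 0.11 SE, adjusted p = 3.47e-04). Nr3c1, the glucocorticoid receptor, had 104, 97.9 and 110 CPM in EV and 36.1, 36.6 and 36.3 CPM in Sox4 (-1.52 ± 0.05 SE, adjusted p = 3.23e-06). In all 3 genes the Sox4 libraries lay close together, Sox4 replicate 3 included.

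Thrb, a thyroid hormone receptor, fell by 0.93 on the log2 scale (adjusted p = 6.16e-04). Igf1 and Igfals, growth hormone targets that encode a circulating growth factor and its carrier subunit, fell by 0.65 and 0.70 (adjusted p = 0.00993 and 0.00721, edgeR). As the median of this list was -0.18 with library size alone, the size of these falls depends on the scaling. Jak2, the receptor's kinase, was higher by 0.60 (adjusted p = 0.0125). Cish, a feedback inhibitor induced by STAT5, was higher by 1.42 (adjusted p = 0.0280), and Socs2, another such inhibitor, had 1.0, 3.42 and 15.8 CPM in EV and 5.31, 17.6 and 23.9 CPM in Sox4 and did not pass (adjusted p = 0.368). Stat5a (0.05, adjusted p = 0.831), Zhx2 (0.06, adjusted p = 0.789) and Bcl6, a repressor more active in male liver (-1.09 ± 1.11 SE, adjusted p = 0.357), did not pass. Cux2, a repressor of male-biased genes that is normally found in female liver, had 2, 0 and 0 counts in EV and 77, 26 and 219 in Sox4 (6.56 ± 0.94 SE, adjusted p = 0.00314). It was tested through Sox4 alone.

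Genes with a sex bias in mouse liver were examined next. Of 16 tested male-biased genes outside the family, 14 were lower and none was higher, beside 26.0% and 29.0% of all genes tested. Their median log2 fold change was -3.59. Cspg5 and Serpina4-ps1 were under the minimum count of 10 in every Sox4 library, so they could only come out lower. Elovl3, a fatty acid elongase, had 360, 119 and 80.6 CPM in EV and 1.05, 0.511 and 0 CPM in Sox4 (-8.46 ± 1.17 SE, adjusted p = 0.00171). Hsd3b5, a steroid dehydrogenase, had 219, 221 and 370 CPM in EV and 2.16, 1.07 and 0 CPM in Sox4 (-7.96 ± 1.31 SE, adjusted p = 4.99e-04). Cyp4a12a, a fatty acid hydroxylase, fell by 5.98 on the log2 scale (adjusted p = 0.0102). At the other end of the list were Gstp1 (-1.23, adjusted p = 0.0103), Susd4 (-1.72, adjusted p = 0.0854) and Ihh (0.93, adjusted p = 0.0560).

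Of 17 female-biased genes, among them Cux2 of the hormone list, 8 were tested. Of these, 4 were higher and none was lower, beside 29.0% and 26.0% of all genes tested. Cux2, Acot3 and A1bg were under the filter's minimum count of 10 in every EV library. They were tested through Sox4 and could only come out higher. The median of the 8 tested genes was 3.56, and it ran from 2.52 without Sox4 replicate 3 to 4.90 without EV replicate 2. Cyp2a4, a cytochrome P450, had 3.39, 107 and 41.1 CPM in EV and 683, 1076 and 783 CPM in Sox4 (4.07 ± 1.48 SE, adjusted p = 0.0371). Acot3, an acyl-CoA thioesterase, had 0.694, 0.683 and 0.436 CPM in EV and 8.22, 19.5 and 33.9 CPM in Sox4 (5.07 ± 0.62 SE, adjusted p = 5.43e-04). A1bg, a secreted immunoglobulin-like protein, had 4, 2 and 0 counts in EV and 18, 16 and 215 in Sox4 (4.73 ± 1.28 SE, adjusted p = 0.0387). Cyp17a1, a steroid hydroxylase, had 145, 162 and 93 counts in EV and 50, 30 and 175 in Sox4 and did not pass (-1.23 ± 0.78 SE, adjusted p = 0.142). The summed levels of both lists also set EV replicate 2 apart, though not every gene did. Among male-biased genes Elovl3 was lowest in EV replicate 3 and Slco1a1 in EV replicate 1. The female-biased sum of EV replicate 2 was mostly Cyp2a4 (107 CPM) and Cyp2b9 (54.9 CPM). Its summed level of male-biased genes was 6210 CPM, against 9203 and 8573 CPM in EV replicates 1 and 3, and its summed level of female-biased genes was 189 CPM, against 24.4 and 64 CPM. Sox4 replicate 3 stood apart in the male-biased sum, with 842 CPM against 1994 and 1864 CPM in Sox4 replicates 1 and 2, and had the most counts of Cux2 and A1bg. The part of these differences in the Mup levels of either library was not tested.

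**Figure D5:**
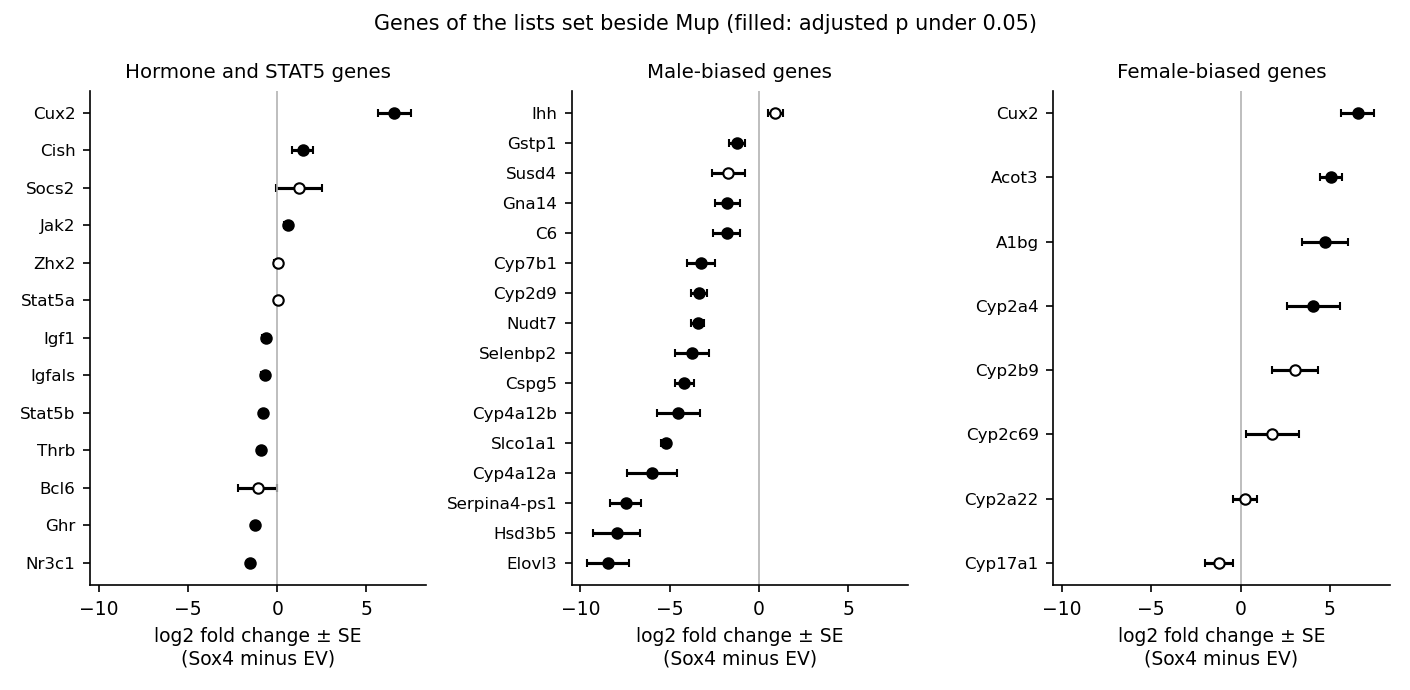
Log2 fold change (Sox4 minus EV, edgeR) with 1 SE for the tested hormone and STAT5 genes, male-biased genes outside the family and female-biased genes, with filled points at an adjusted p under 0.05. Male-biased genes reach -8.46 (Elovl3) and female-biased genes 6.56 (Cux2), while the hormone and STAT5 genes other than Cux2 lie between -1.52 and 1.42.

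Other secreted proteins were taken from 2 further lists. Of 25 abundant plasma proteins, 21 were lower and none was higher, beside 26.0% and 29.0% of all genes tested. Their median log2 fold change was -1.08, from -3.05 (Serpina3k, a protease inhibitor) to 0.23 (Ahsg, fetuin-A). Of 9 tested lipocalins outside the Mup cluster, 6 were lower and 1 higher, beside the same shares of all genes, with a median of -1.16. C8g, a complement subunit, fell by 2.84 (adjusted p = 3.94e-07), and Orm1, an acute phase carrier, fell by 2.61 (adjusted p = 9.22e-06). Rbp4, the retinol carrier, fell by 0.71 (adjusted p = 0.00421), whereas Ambp, the precursor of alpha-1-microglobulin, was at 0.17 (adjusted p = 0.419). Ptgds, a prostaglandin synthase, was higher by 2.7 (adjusted p = 0.00181, edgeR). It had 6, 7 and 5 counts in EV and 69, 25 and 82 in Sox4. Every EV library was under the filter's minimum count, so Ptgds was tested through Sox4 and could only come out higher.

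Of 12 hepatocyte transcription factors, 6 were lower and 2 higher, beside 26.0% and 29.0% of all genes tested. Their median was -0.35, but 0.11 with library size alone, so the direction of this median depends on the scaling. Cebpb and Cebpa fell by 1.4 and 1.34 (adjusted p = 7.33e-04 and 9.01e-04, edgeR), and Hnf4a, the nuclear receptor that maintains hepatocyte genes, fell by 0.60 (adjusted p = 0.00580). Foxa1 and Foxa3, forkhead factors, were higher by 1.32 and 0.60 (adjusted p = 3.25e-05 and 0.00250, edgeR).

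Markers of other liver cells were at low levels. The few calls among them stand beside 29.0% of all genes tested that were higher and 26.0% that were lower. In the stellate, cholangiocyte and blood cell sets the summed levels of the groups did not overlap, and in the Kupffer and endothelial sets they did. The 7 Kupffer cell markers had sums between 9.32 and 23.2 CPM in EV and between 21.7 and 55.3 CPM in Sox4, with 2 of 6 tested higher. The 7 endothelial markers summed to 15.8 to 23.1 CPM and 12.5 to 29.4 CPM, with 2 of 7 higher and 1 lower. The 7 stellate markers summed to 8.78 to 44.1 CPM and 74.2 to 134 CPM, most of it Reln, with 1 of 3 higher. The 8 cholangiocyte markers summed to 10.1 to 21.9 CPM and 49.9 to 59.8 CPM, with 2 of 3 higher, and Krt7, Krt19 and Tspan8 were at 0 in every EV library. Epcam, 1 of the 2, was under the filter's minimum count of 10 in every EV library, so it could only come out higher. By flow cytometry on a later day, the study found modest EPCAM in hepatocyte-derived cells after Sox4 delivery. Whether the cholangiocyte markers here came from duct cells or from hepatocytes was not tested. The 8 blood cell markers summed to 94.1 to 127 CPM and 6.69 to 17.0 CPM, nearly all of it Alas2, a heme synthesis enzyme of red cell precursors, with 1 of 2 tested lower, while the hemoglobin gene Hbb-bs had 0 to 5 counts in EV and 9 to 22 in Sox4. The part of these cells in the Mup differences was not tested.

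Across all 6 libraries, the genes whose deviations from the group means in log2 CPM were most like those of the Mup sum were Rfc5 (Pearson r = 0.998), Tbc1d25 (0.997), Tep1 (0.995), C6 (0.995) and Slc25a17 (0.992), out of 9015 genes outside the family with a mean count of at least 100. These are a description over 6 libraries, in which Sox4 replicate 3 deviates most. Of the 5, C6, a complement component that is also on the male-biased list, fell (-1.80, adjusted p = 0.0426), Tbc1d25 and Slc25a17 were higher (0.64 and 0.40, adjusted p = 0.0214 and 0.0183, edgeR), and Rfc5 and Tep1 did not pass (adjusted p = 0.642 and 0.632).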

How the data were processed

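The authors sequenced hepatocyte RNA from 3 EV and 3 Sox4 libraries, and deposited raw counts per gene. The submitters' processing notes name STAR 2.7.10b, featureCounts 2.0.1 and GRCm39. Strand setting, annotation release and treatment of multiply mapped reads are not given in the sources used here. The authors also deposited a normalized signal. It equalled the counts divided by 1 constant per library, the DESeq2 median-of-ratios size factor, and served only as an alternative for the shares.

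The counts were tested with edgeR 4.0.16, and with DESeq2 1.42.0 and limma 3.58.1 as alternatives, under R 4.3.3. filterByExpr (minimum count 10, minimum total 15) kept 12691 of the 24036 genes with a count. The contrast Sox4 minus EV used edgeR's robust quasi-likelihood fit with TMM (trimmed mean of M-values) and no covariate, and Benjamini-Hochberg adjustment ran over every tested gene. An adjusted p without a named tool is from this fit. Steps were tested on simulated data. The Mup total was fitted as 1 row, and changes relative to it used the log of each library's Mup count as the offset. An SE is that of the difference in mean log2 CPM (prior count 2) between EV and Sox4. Group and replicate came from the sample labels. Libraries of the same group differed beyond counting error (chi-square per degree of freedom of 19.3 to 69.8). The alternatives were other scalings, filters and tests, the replicate number as a block, and leaving out each library.

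Sequence identity and shared stretches came from GENCODE M21 transcripts on GRCm38, whereas the counts are on GRCm39, and promoters from RefSeq. Named genes were the members, the other Mup rows, all tested regulators, at most 4 genes from either end of each other list, and the 5 most alike genes. Members and lists were chosen with earlier results of these data known.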

Additional observations from a re-analysis of the deposited data

How the results depend on the processing

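The sum of all Mup genes, Mup1, Mup2 and Mup3 kept their direction and stayed past the threshold in every alternative that could test them, and all tested members stayed below 0. Adjusted p-values ranged from 6.23e-12 to 0.0233 for the sum and up to 9.73e-04 for Mup3. For the other members the call depended on the setting, and the cause was not tested. Mup7 passed with DESeq2 (log2 fold change -4.45) and when genes needed a mean count of 50 (-4.42), and leaving out each library gave -4.97 to -3.86. Mup11 passed with the same settings (-4.29 and -4.26, range -5.26 to -3.70), and Mup20 with DESeq2 (-1.26, range -1.58 to -0.85). Mup17 lost the call with limma-voom (-5.35) and without a filter (-5.30), with a range of -6.42 to -4.76. Mup21 lost it with library size alone (-1.92) and without a filter (-2.35), with a range of -2.92 to -1.91.

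Against Mup3 alone in place of the Mup sum, Mup7 (-1.25) and Mup11 (-1.18) did not pass, Mup20 passed (2.00), and Mup21 turned to 0.79 without passing. Against the other Mup genes, Mup20 passed (2.03). Leaving out each library gave -8.62 to -3.38 for Mup1, -1.10 to -0.76 for Mup3, -3.0 to -1.80 for Mup7, -2.98 to -1.69 for Mup11, -3.94 to -2.72 for Mup17, 0.96 to 1.12 for Mup20 and -0.45 to 0.044 for Mup21, and the share of Mup21 in the Mup total changed by -0.283 to 0.0324 percentage points. With library size alone, the median of the hepatocyte transcription factors turned to 0.11 and 4 of 8 members were lower, against 5 by the reported fit, 8 with DESeq2 and 3 to 6 in the fits on 5 libraries.

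Replicate numbers are shared by the groups, but deviations of same-numbered libraries correlated at 0.298, -0.111 and 0.147, which gives no ground for pairing them. With the replicate block, 7362 genes were called against 6990, Mup17 (-4.87) and Mup21 (-2.67) did not pass, and against the Mup sum neither did Mup11 (-2.56) or Mup17 (-2.81). With 3 libraries a group, the changes of Mup7, Mup11 and Mup17 had SEs of 2.22, 2.29 and 1.88 on the log2 scale. The SE of 0.26 for Mup2 is narrowed by the prior count at 5, 2 and 2 Sox4 counts, and DESeq2 gave 0.57.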
